A study of Mus musculus with 2 samples.

Results

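The cells described here were chosen by the transcripts they held, as interstitial fibroblasts of mouse prostate tumours. A cell entered when Col1a1, Col1a2, Col3a1 and Dcn together gave at least 20 unique molecular identifiers (UMIs, each marking 1 captured RNA molecule) per 10000 UMIs of the cell. It also had under 5 per 10000 of the contractile genes Acta2 and Tagln and no UMI of Ptprc or Pecam1, which mark immune and endothelial cells. Kept cells had more than 200 and fewer than 7000 genes, under 15% mitochondrial UMIs and at least 1000 UMIs. In the library of DoubleTg mice 869 of 9854 kept cells met the rule (8.82%, exact binomial 95% interval 8.27 to 9.40), and in that of TripleTg mice 413 of 9262 did (4.46%, 4.05 to 4.90).

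Single-cell RNA-seq (10x Genomics, 3′ chemistry) was performed on dissociated prostate tumours, with 1 library per genotype. DoubleTg mice, whose tumour is labelled prostatic adenocarcinoma, carried hHGFtg, a human HGF transgene active throughout the animal, and hMETtg, a human MET transgene that stays silent until PBCre, a Cre driven by the probasin promoter, acts in prostate epithelium. TripleTg mice, whose tumour is labelled prostatic carcinoma, carried the same transgenes and Cre and in addition a Ctnnb1 allele from which Cre removes an exon, so that β-catenin is stabilised. Both groups share hHGFtg, hMETtg and PBCre, and no library without them was analysed. The probasin promoter does not target fibroblasts, so their hMETtg and Ctnnb1 alleles are not the ones the design switches on. Mice of both groups were of mixed C57BL/6 and C3H SCID background. The age of the animals and the number pooled in each library are not given in the sources used here. A single library per genotype allows no replicate check, so differences are given without tests. The 95% intervals cover counting error only and are Poisson for levels, binomial for shares and conditional binomial for ratios. The libraries held 302424122 and 229655259 UMIs, of which 9264933 and 3620982 lay in the chosen cells. The libraries shared 30 cell barcodes, none of them a chosen cell.

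Fibroblasts build the collagen and proteoglycan matrix around prostate glands, and they are a main source of secreted factors that act on the epithelium. HGF, the ligand of the MET receptor, is normally made by such mesenchymal cells and received by epithelial cells. In tumours, fibroblasts are commonly described in states that deposit matrix, secrete chemokines, answer interferon or stay close to the resting tissue.

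The label held for only a part of the chosen cells. A cell was called collagen-dominant when its Col1a1, Col1a2, Col3a1 and Dcn UMIs together exceeded those of Epcam, Krt8, Krt18, Krt5 and Krt14, and keratin-dominant otherwise, a split added after the clusters had been seen. Of the DoubleTg cells 495 were collagen-dominant and 374 (43.0%) keratin-dominant, against 326 and 87 (21.1%) in TripleTg. Keratin-dominant DoubleTg cells held Epcam in 99.2% and Krt5 in 90.4% of cells, with Lum in 5.08% and Col1a2 in 8.29%. Dcn was present in all 374 of them. In TripleTg the keratin-dominant cells held Epcam in 87.4%, Krt5 in 26.4%, Lum in 47.1% and Col1a2 in 46.0% of cells. Epcam, Krt5, Col1a2 and Dcn are genes of the split, so their shares describe it. Of these genes only Lum had no part in the split or the rule. The results are therefore led by collagen-dominant cells, with the value over all cells of the rule given beside them where it differs.

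**Figure D1:**
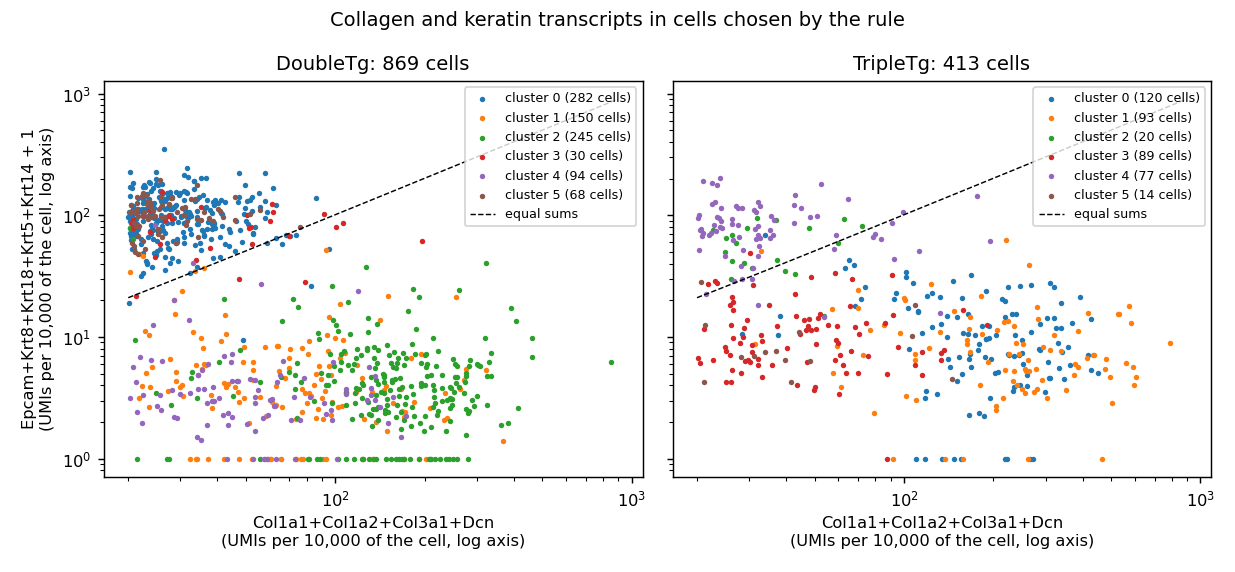
Each point is 1 cell chosen by the rule, with the summed collagen and Dcn UMIs per 10000 on the x axis and the summed epithelial UMIs per 10000, plus 1, on the y axis, both on log axes. Points above the dashed line are keratin-dominant, 374 of 869 DoubleTg cells and 87 of 413 TripleTg cells, and colours mark clusters made within each library.

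The threshold passed through the epithelial side of this mixture. Just inside it, with a collagen sum of 20 to 25 per 10000, lay 173 DoubleTg cells, of which 3.47% had a Lum UMI and 91.3% an Epcam UMI. Just outside, at 15 to 20 per 10000, lay 277 DoubleTg cells with shares of 1.08% for Lum and 97.1% for Epcam. The TripleTg cells just inside numbered 38, with shares of 28.9% and 78.9%, and those just outside numbered 85, with 11.8% and 88.2%. At the contractile limit there were few cells, 16 inside and 11 outside in DoubleTg and 19 inside and 7 outside in TripleTg, each within 1 per 10000 of the limit.

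Collagen-dominant cells expressed the fibroblast markers in both libraries. Dcn, decorin, a collagen-binding proteoglycan, was at 10857 CPM (UMIs of a gene per 1000000 UMIs of the summed cells) in DoubleTg and 9473 CPM in TripleTg. Apod, a secreted lipid-binding protein, was at 7192 CPM and 6272 CPM. Lum, lumican, which shapes collagen fibrils, was at 558 CPM in DoubleTg and 1395 CPM in TripleTg. C3, the central complement component, was at 432 CPM and 1330.3 CPM. Pdgfra, the receptor by which fibroblasts are often recognised, was found in 71.3% and 58.3% of collagen-dominant cells, against 0.522% and 1.63% of cells in the immune gate. Collagen-dominant cells had median depths of 8074 (DoubleTg) and 5408 (TripleTg) UMIs.

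The genes that stood highest over all other kept cells in both libraries included several that encode secreted or matrix proteins. Sult1e1, an enzyme that inactivates oestrogen by sulphation, was at 414 CPM in DoubleTg and 134 CPM in TripleTg collagen-dominant cells. C7, a component of the complement membrane attack complex, was at 61.6 CPM and 78.1 CPM. Clec3b, which encodes tetranectin, was at 75.7 CPM and 202 CPM. Dpt, which encodes the matrix protein dermatopontin, was at 144 CPM and 298 CPM. Matn2, a matrix adaptor protein, was at 544 CPM and 455 CPM, and Fbln1, a fibulin, at 829.8 CPM and 1277 CPM. Because collagen genes and Dcn chose the cells, these ranks describe the cells and test nothing.

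Against the contractile collagen-positive cells of the same library, which met the rule except that Acta2 and Tagln reached 5 per 10000, collagen-dominant cells were higher for some of the genes named above and lower for others. Sult1e1 was 2.04 (1.86 to 2.23) higher on the log2 scale in DoubleTg and 1.65 (1.25 to 2.08) higher in TripleTg. Matn2 was 1.88 (1.73 to 2.04) and 1.27 (1.08 to 1.47) higher. The log2 ratio of Timp1, an inhibitor of matrix metalloproteinases, was -1.83 (-1.92 to -1.74) in DoubleTg and -0.80 (-0.88 to -0.73) in TripleTg. That of Postn, periostin, was -2.02 (-2.35 to -1.70) and -1.21 (-1.41 to -1.01), so both were higher in the contractile cells. Wif1, a secreted Wnt inhibitor, had log2 ratios of -0.22 (-0.30 to -0.15) and 2.59 (2.35 to 2.83), opposite in sign in the libraries.

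Clustering the chosen cells within each library separated these kinds. Of 6 DoubleTg clusters, clusters 1, 2 and 4 (150, 245 and 94 cells) were fibroblast-like, with 18, 20 and 16 of 20 pan-fibroblast genes at least 2-fold over the other kept cells. Of 6 TripleTg clusters, clusters 0, 1 and 3 (120, 93 and 89 cells) were fibroblast-like, with 19, 20 and 19 of the 20. DoubleTg clusters 0 and 5 (282 and 68 cells) were led by the basal keratins Krt14, Krt15 and Krt5 and had 0 of the 20. DoubleTg cluster 3 (30 cells), led over the other chosen cells by Spink5, Psca and Cldn3, and TripleTg clusters 2 and 4 (20 and 77 cells), led by Krt14 and Lgals7 and by Tchh and defensin genes, held epithelial and fibroblast genes together and were left unnamed. TripleTg cluster 5 (14 cells) was led by Rgs5, Higd1b and Kcnj8, with 10 of 15 smooth muscle and pericyte markers at least 2-fold over the other kept cells.

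**Figure D2:**
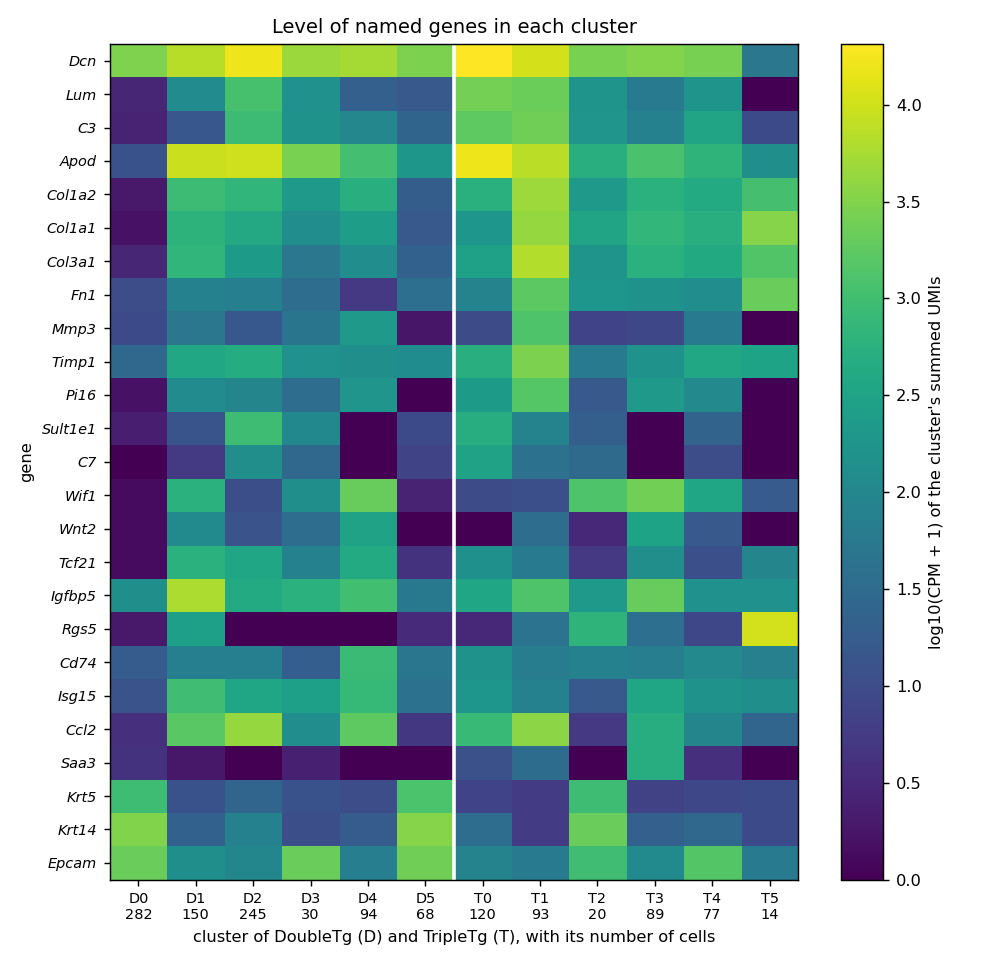
Rows are genes and columns are clusters of DoubleTg (D) and TripleTg (T) with their number of cells, and colour gives log10(CPM + 1) of the summed UMIs. Dcn is high in nearly all columns, whereas Col1a2, Lum and Apod are near the floor in D0, which had 282 cells.

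DoubleTg cluster 0 held Dcn with little of the other fibroblast genes. In this cluster Dcn stood at 3011 CPM, while Col1a1 was at 0.643 CPM, Col1a2 at 0.965 CPM, Apod at 11.3 CPM and Pdgfra at 0.965 CPM. In DoubleTg cluster 2 the same genes were at 16023 CPM for Dcn, 395 CPM for Col1a1, 677 CPM for Col1a2, 10119 CPM for Apod and 362 CPM for Pdgfra. Krt15, Krt14 and Krt5, keratins of basal cells, were at 6712 CPM, 3109 CPM and 951 CPM in cluster 0. In the epithelial gate as a whole Dcn was at 117 CPM in DoubleTg and 126 CPM in TripleTg. With so little collagen these cells could meet the rule only through Dcn, so its level in them was set by the rule.

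Of the 3 fibroblast-like clusters of each library, 2 were paired by their leading genes and 1 had no counterpart. DoubleTg cluster 2 and TripleTg cluster 0 had Sult1e1 among their leading genes (923 CPM and 488 CPM), with Lum at 1158 CPM and 2623 CPM and C3 at 888 CPM and 1746 CPM. DoubleTg cluster 4 and TripleTg cluster 3 had among theirs Wif1 (2062 CPM and 2439.5 CPM) and the Wnt ligand Wnt2 (306 CPM and 316 CPM). In those clusters Lum was at 20.2 CPM and 55.8 CPM. The unpaired DoubleTg cluster 1 was led by Igfbp5, an insulin-like growth factor binding protein, at 6025 CPM, with Cxcl14, a chemokine, at 4249 CPM. Rgs5 was also among its leading genes, with 4 of 15 smooth muscle and pericyte markers at least 2-fold over the other kept cells.

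The unpaired TripleTg cluster 1 was led by Mmp3, Spp1 and Ccl7 and is described by genes picked for their height in it. Its Dcn, at 10891 CPM, lay within the 5339 CPM to 16023 CPM of the fibroblast-like DoubleTg clusters. Col3a1, the chain of type III collagen, was at 6483 CPM in it, against 128 CPM to 682 CPM in the fibroblast-like DoubleTg clusters. Fn1, fibronectin, was at 1708 CPM against 4.21 CPM to 79.1 CPM. Timp1 was at 2929 CPM against 139.7 CPM to 469.9 CPM, and Mmp3, stromelysin, at 1346 CPM against 14.3 CPM to 216 CPM. Pi16, one of the 12 genes listed for adventitial fibroblasts, was at 1524 CPM against 89.1 CPM to 179 CPM. Only 4 of those 12 genes were at least 2-fold over the other kept cells in this cluster, against 11 of 12 listed for parenchymal fibroblasts. Spp1, osteopontin, was at 1356 CPM and at most 36.5 CPM in those DoubleTg clusters.

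Between the libraries, several collagen and other matrix genes were higher in TripleTg collagen-dominant cells, while Dcn was slightly lower, with a log2 ratio of -0.20 (-0.22 to -0.17). Col3a1 was at 321 CPM (304 to 339) in DoubleTg and 2842 CPM (2774 to 2911) in TripleTg, a log2 ratio of TripleTg over DoubleTg of 3.15 (3.06 to 3.23). Col1a1, a chain of type I collagen, was at 415 CPM and 2118 CPM, a log2 ratio of 2.35 (2.27 to 2.43). Col3a1, Col1a1 and Dcn helped to choose the cells and are a description. Fn1 was at 52.7 CPM and 822 CPM, a log2 ratio of 3.97 (3.76 to 4.17). Ltbp2, which binds to fibrillin microfibrils, was at 20.2 CPM and 262 CPM, and Timp1 at 338 CPM and 1284 CPM.

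Of all 5832 genes with at least 20 CPM in either library, 8.71% were at least 2-fold higher and 5.73% at least 2-fold lower in TripleTg collagen-dominant cells, and the median log2 ratio was 0.00. Of the 14 fibrillar and fibril-associated collagens, all measured, 8 were at least 2-fold higher and 0 lower, with a median log2 ratio of 1.33. Of the 8, Col1a1, Col1a2 and Col3a1 had helped to choose the cells. The other 5 were Col5a1, Col5a2, Col5a3, Col8a1 and Col14a1. Of 16 matrix-remodelling genes measured, 7 were higher and 0 lower (median 0.93). Of 26 proteoglycans, elastic fibre proteins and matrix glycoproteins 9 were higher and 2, Sparcl1 and Efemp1, lower (median 0.62). Of 13 genes known to respond to TGF-beta, 6 were higher and 0 lower (median 0.98), of which Col1a1 is a gene of the rule and Fn1, Postn and Cthrc1 were also among the matrix-remodelling genes. Over all cells of the rule, where 9.90% of 5861 genes were at least 2-fold higher and 8.07% lower, 9 of 14 collagens were higher and 0 lower (median 1.82). Scaling by edgeR's TMM factors moved the gene ratios by a median of -0.11 and turned the counts over all cells of the rule from 580 higher and 473 lower to 475 higher and 596 lower.

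The higher matrix levels were not seen throughout the paired clusters. In the Sult1e1-led clusters Col5a2, a chain of type V collagen that the rule did not use, was at 158 CPM in DoubleTg and 81.3 CPM in TripleTg, a log2 ratio of -0.96 (-1.49 to -0.47). None of 14 collagens was 2-fold higher there and 4 were lower (Col12a1, Col15a1, Col5a3 and the rule gene Col1a1), beside 6.69% higher and 13.4% lower of 5549 genes. In the Wif1-led clusters Col5a2 was at 120.3 CPM and 259 CPM, a log2 ratio of 1.10 (0.77 to 1.44). There 5 of 12 collagens measured were at least 2-fold higher (Col5a2, Col6a1, Col6a2 and the rule genes Col1a1 and Col3a1) and 0 lower, beside 10.5% higher and 7.36% lower of 5963 genes. Of the matrix-remodelling genes, 0 of 14 were higher and 4 lower in the Sult1e1-led pair (median -0.73) and 3 of 12 higher and 0 lower in the Wif1-led pair (median 0.30). Of the TGF-beta response genes, 1 of 12 was higher and 3 lower in the Sult1e1-led pair (median -0.30) and 3 of 10 higher and 0 lower in the Wif1-led pair (median 0.21). Timp1 had log2 ratios of 0.12 (-0.09 to 0.33) and 0.19 (-0.18 to 0.56) in these pairs, against 1.92 over the collagen-dominant cells. Fn1 had 0.23 (-0.32 to 0.76) and 5.30 (4.03 to 6.95), the latter from 5 and 107 UMIs. The clusters were paired after their leading genes had been seen, and the difference between the pairs was not tested. The median log2 ratio over all genes was -0.18 in the Sult1e1-led pair and 0.04 in the Wif1-led pair.

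The Rgs5-led TripleTg cluster 5 also carried matrix transcripts, with Postn at 1620.2 CPM and Fn1 at 2124 CPM in 14 cells. Smooth muscle and pericyte markers summed to 443 CPM in DoubleTg and 1081 CPM in TripleTg collagen-dominant cells, with 14 and 15 of 15 present and Cnn1 at 0 in DoubleTg. Without TripleTg cluster 5 the collagens had a median log2 ratio of 0.89 over the collagen-dominant cells. DoubleTg cluster 1, which also had Rgs5 among its leading genes, was not taken out. Other cells showed the matrix difference too. In contractile collagen-positive cells Col3a1 was at 750.3 CPM in DoubleTg and 4434 CPM in TripleTg, and Fn1 at 187 CPM and 1732 CPM.

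Interferon-stimulated genes went the other way. Isg15, a ubiquitin-like protein induced by interferon, was at 649 CPM (625 to 674) in DoubleTg and 183 CPM (166 to 202) in TripleTg collagen-dominant cells, a log2 ratio of -1.83 (-1.98 to -1.68). Ifit1, which binds viral RNA, was at 179 CPM and 49.8 CPM, a log2 ratio of -1.84 (-2.14 to -1.56). Rsad2, the antiviral protein viperin, was at 146 CPM and 24.5 CPM, a log2 ratio of -2.58 (-2.997 to -2.19). Gbp2, a guanylate-binding GTPase, was at 207 CPM and 53.7 CPM. Of 22 listed genes measured, 14 were at least 2-fold lower and 0 higher, with a median log2 ratio of -1.39, beside 5.73% lower and 8.71% higher over all genes. The exceptions to this direction, above 0, were Irf1 at 0.59, Ifi27 at 0.35 and Bst2 at 0.09. Over all cells of the rule 4 of 20 were lower and 0 higher, with a median of -0.65, beside 8.07% lower and 9.90% higher, and Ifit3 turned from -1.08 to 0.61.

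The lower values were also found within matched states. In the Sult1e1-led clusters Isg15 was at 362 CPM in DoubleTg and 186 CPM in TripleTg, a log2 ratio of -0.96 (-1.30 to -0.63), and 10 of 22 listed genes were at least 2-fold lower and 1 higher, beside 13.4% and 6.69% over all genes. In the Wif1-led clusters Isg15 was at 773 CPM and 350.1 CPM, a log2 ratio of -1.14 (-1.36 to -0.93), and 6 of 23 were lower and 1 higher, beside 7.36% and 10.5%. The list's medians of -0.92 and -0.43 stood beside the medians over all genes of -0.18 and 0.04. TripleTg cluster 1 had the lowest Isg15 of the fibroblast-like clusters, 78.5 CPM.

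Other cells of the tumours showed the same direction for Isg15. In the immune gate it was at 586 CPM in DoubleTg and 348 CPM in TripleTg, in contractile collagen-positive cells at 302 CPM and 123 CPM, and in the epithelial gate at 89.0 CPM and 47.5 CPM. Rsad2 was at 497 CPM and 148 CPM in the immune gate and at 53.5 CPM and 25.3 CPM in the epithelial gate. For Rsad2 the contractile collagen-positive cells were close to each other, at 33.2 CPM and 27.4 CPM.

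The start regions of Isg15, Ifit1 and Rsad2, 3 of the lower genes, are shown with matches to a short element that many but not all genes of the list held. Interferon-stimulated genes are known to be switched on through sequences built from GAAA repeats, and GAAANNGAAA was searched on both strands from 250 bases before to 50 bases after each start in RefSeq (GRCm38.p6), counting overlapping matches. Matches are in capitals, TTTCNNTTTC being the same element on the other strand. Isg15 lies on the minus strand at chr4:156200769-156201068, Ifit1 on the plus strand at chr19:34640639-34640938 and Rsad2 on the minus strand at chr12:26456403-26456702.
Isg15: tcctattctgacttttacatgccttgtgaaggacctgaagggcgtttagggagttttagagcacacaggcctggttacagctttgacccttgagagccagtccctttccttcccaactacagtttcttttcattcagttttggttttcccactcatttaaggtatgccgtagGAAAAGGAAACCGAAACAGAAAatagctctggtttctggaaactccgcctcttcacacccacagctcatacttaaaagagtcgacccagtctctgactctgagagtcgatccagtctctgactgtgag
Ifit1: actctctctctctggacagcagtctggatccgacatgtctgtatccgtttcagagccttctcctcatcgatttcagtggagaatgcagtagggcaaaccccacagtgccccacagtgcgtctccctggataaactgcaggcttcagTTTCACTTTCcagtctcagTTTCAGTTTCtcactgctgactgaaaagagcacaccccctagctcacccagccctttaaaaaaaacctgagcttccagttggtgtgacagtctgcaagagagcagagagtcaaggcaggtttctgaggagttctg
Rsad2: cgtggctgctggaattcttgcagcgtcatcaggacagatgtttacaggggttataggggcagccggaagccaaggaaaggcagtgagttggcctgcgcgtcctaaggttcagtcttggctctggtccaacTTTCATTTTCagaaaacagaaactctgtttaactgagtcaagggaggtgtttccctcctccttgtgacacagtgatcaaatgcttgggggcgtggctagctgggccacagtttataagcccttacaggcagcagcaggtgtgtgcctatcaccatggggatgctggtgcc
Isg15 held 3 overlapping matches on the strand of the gene, Ifit1 2 on the opposite strand and Rsad2 1 on the opposite strand. Of 19 interferon-stimulated genes of the list with a sequence, 12 held a match, against 1079 of 27025 genes (3.99%). Of the lower genes, Irf7, Ifit2, Oasl2 and Xaf1 held none in this window, while of genes that were not 2-fold lower Bst2 held 2 and Gbp7 and Cxcl10 held 1 each. A match is a description of the letters and does not show a bound site.

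Most antigen-presenting genes measured were lower in TripleTg collagen-dominant cells. Cd74, the invariant chain of MHC class II, was at 296 CPM in DoubleTg and 100.4 CPM in TripleTg, a log2 ratio of -1.56 (-1.77 to -1.36). H2-Aa and H2-Ab1, class II chains, were at 106 CPM and 99.4 CPM in DoubleTg and both at 45.1 CPM in TripleTg. Of 9 genes measured, 5 were at least 2-fold lower and 0 higher, with a median of -1.14, beside 5.73% and 8.71% over all genes. The class I light chain B2m was at 1532 CPM and 941 CPM, a log2 ratio of -0.70 (-0.77 to -0.63). Over all cells of the rule 0 of 9 passed 2-fold, with a median of -0.46, beside 8.07% lower and 9.90% higher. In the Sult1e1-led pair 0 of 9 were lower and 3 higher (median -0.31), beside 13.4% and 6.69%, and in the Wif1-led pair 5 of 9 were lower and 0 higher (median -1.05), beside 7.36% and 10.5%.

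The class II genes were concentrated in one state. In DoubleTg cluster 4 Cd74 was at 886 CPM, against 70.4 CPM and 71.1 CPM in clusters 1 and 2. In TripleTg cluster 3, led by the same genes Wif1 and Wnt2, Cd74 was at 68.2 CPM, a log2 ratio of -3.70 (-4.17 to -3.27). In the Sult1e1-led clusters Cd74 was at 71.1 CPM and 163 CPM, a log2 ratio of 1.19 (0.77 to 1.61), so the direction turned between states. Immune cells, which carry class II RNA, had Cd74 at 24254 CPM in DoubleTg and 8269 CPM in TripleTg, and the part of free RNA or attached immune cells was not tested. The 18 immune markers, with Ptprc at 0 by the rule and the other 17 present, summed to 359 CPM in DoubleTg and 355 CPM in TripleTg collagen-dominant cells. Cd74 is one of them and made up most of the DoubleTg sum. Of the other markers 3 reached 20 CPM, all higher in TripleTg: Fcer1g at 7.52 CPM and 93.1 CPM, Lyz2 at 8.46 CPM and 62.2 CPM and S100a9 at 0.940 CPM and 36.5 CPM. In the Sult1e1-led pair, where Cd74 was higher, all 4 immune markers measured were higher (median 3.62), Cd74 among them, beside 6.69% of all genes. In the Wif1-led pair 2 of 3 were higher and 1, Cd74, lower (median 2.47), beside 10.5% and 7.36%.

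**Figure D3:**
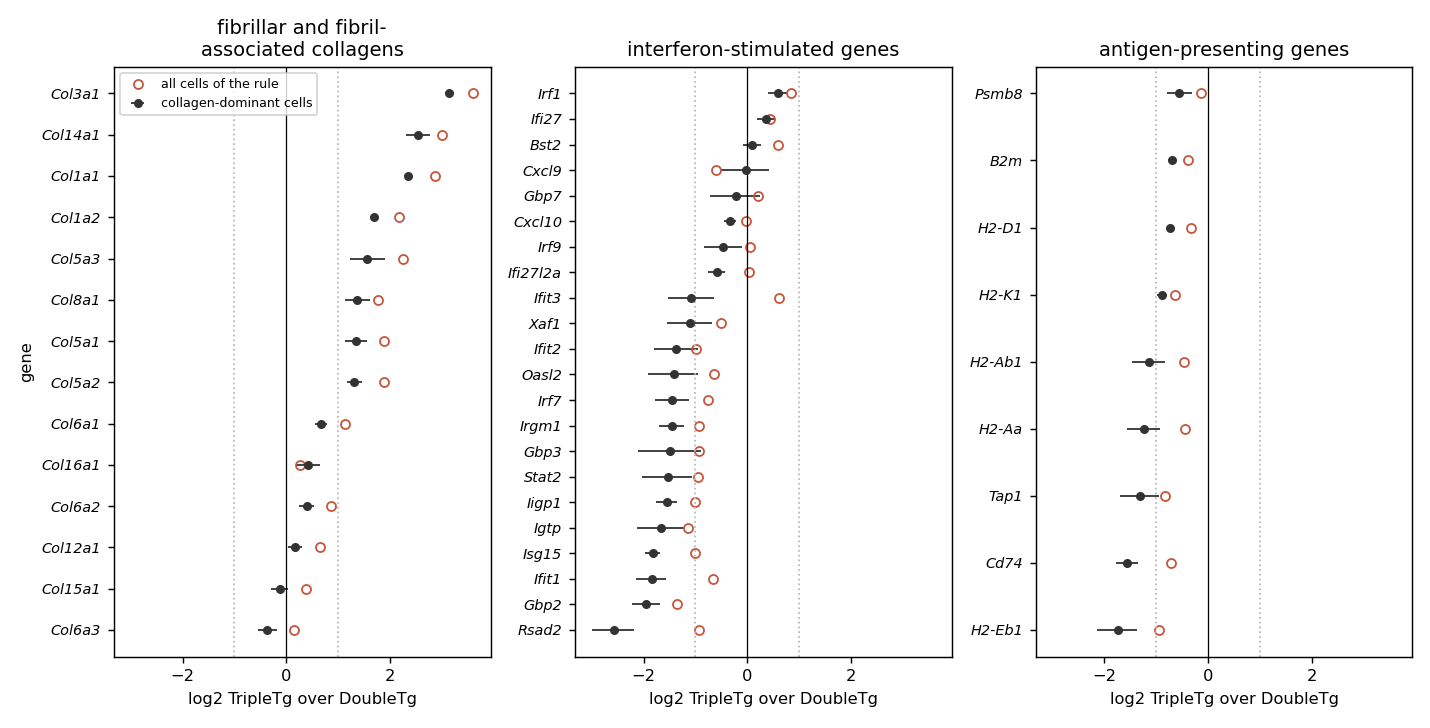
Log2 ratios of TripleTg over DoubleTg for 3 gene lists, where filled points with bars are collagen-dominant cells with their 95% counting interval, open points are all cells of the rule and dotted lines mark 2-fold. Col3a1 stands highest among the collagens at 3.15 and Rsad2 lowest among the interferon-stimulated genes at -2.58.

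**Figure D4:**
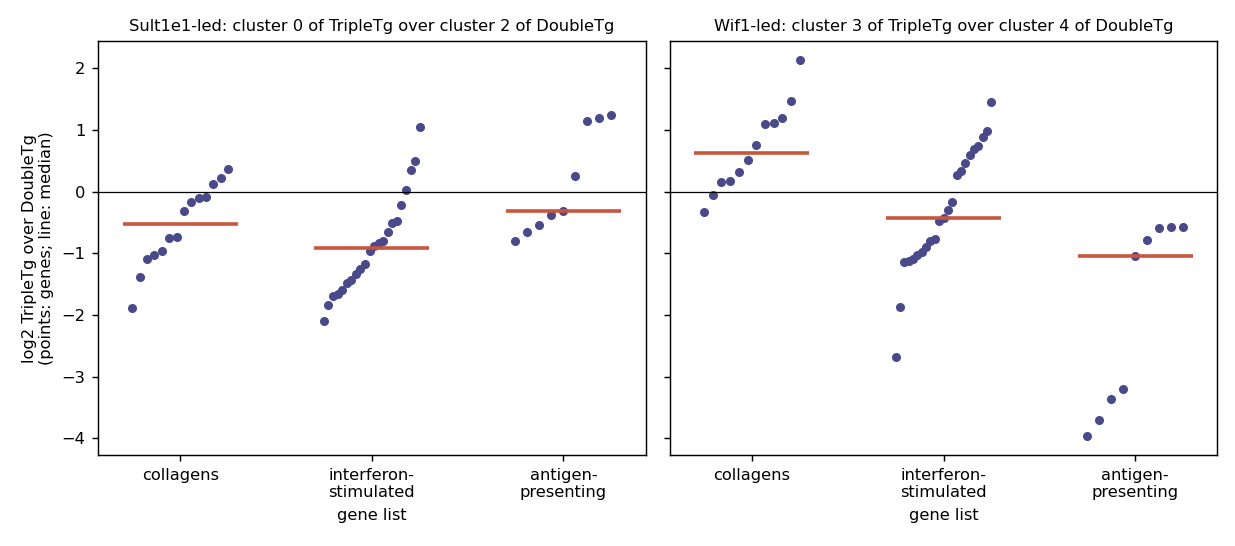
Log2 ratios of TripleTg over DoubleTg within clusters led by the same genes, with a point for each gene and a line at the median. The collagens have a median of -0.53 in the Sult1e1-led pair and 0.63 in the Wif1-led pair, and the interferon-stimulated genes have -0.92 and -0.43.

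Chemokines and adhesion molecules did not move as one group. Vcam1, an adhesion molecule for leukocytes, was at 887 CPM in DoubleTg and 193 CPM in TripleTg collagen-dominant cells, a log2 ratio of -2.20 (-2.35 to -2.06). Cxcl13, which attracts B cells, was at 135 CPM and 26.2 CPM, a log2 ratio of -2.37 (-2.77 to -1.98). Ccl2, which attracts monocytes, was at 2858 CPM and 1660.0 CPM, a log2 ratio of -0.78 (-0.84 to -0.73). Cxcl5, which attracts neutrophils, was at 15.3 CPM and 90.6 CPM, and Ccl11, eotaxin, at 76.9 CPM and 179.9 CPM, both higher in TripleTg. Of 19 inflammatory fibroblast genes measured, 5 were at least 2-fold higher and 1 lower, with a median of 0.42, beside 8.71% higher and 5.73% lower over all genes.

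The chemokine values also depended on the state compared. In the Sult1e1-led clusters Ccl2 was at 4348 CPM in DoubleTg and 830.1 CPM in TripleTg, and Vcam1 at 1307 CPM and 248 CPM. Ccl11 was lower in TripleTg there, at 108 CPM and 6.42 CPM (204 and 3 UMIs), and in the Wif1-led clusters its log2 ratio was -0.34 (-0.99 to 0.29). In the Sult1e1-led clusters 11 of 18 inflammatory genes were at least 2-fold lower and 2 higher, with a median of -1.45, beside 13.4% lower and 6.69% higher over all genes. In the Wif1-led clusters 9 of 18 were lower and 2 higher, with a median of -0.95, beside 7.36% lower and 10.5% higher. In TripleTg cluster 1, by contrast, Ccl2 was at 3648 CPM and Cxcl1, a neutrophil chemokine, at 3631 CPM. Saa3, an acute-phase protein, had 2 UMIs in DoubleTg and 341 UMIs in TripleTg collagen-dominant cells, a log2 ratio between 6.42 and 11.33, and was highest in TripleTg cluster 3 at 477 CPM.

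Signals of the Wnt pathway were examined because TripleTg epithelium carries stabilised β-catenin. Of 16 Wnt ligands, R-spondins and extracellular Wnt inhibitors measured in collagen-dominant cells, 8 were at least 2-fold higher in TripleTg and 1 lower, with a median of 0.92, beside 8.71% and 5.73% over all genes. Among the inhibitors, Sfrp1 was at 342 CPM in DoubleTg and 1163 CPM in TripleTg, and Sfrp4 at 19.3 CPM and 164 CPM. Among the ligands, Wnt5a was at 16.9 CPM and 61.4 CPM, a log2 ratio of 1.86 (1.44 to 2.29). The ligand Wnt11 was lower, at 86.3 CPM and 24.5 CPM. Wif1 was at 723 CPM and 701 CPM, a log2 ratio of -0.04 (-0.13 to 0.04), while over all cells of the rule it was 1.03 and without cells over 5 epithelial UMIs per 10000 -0.82. Sfrp4 was highest in TripleTg cluster 1, at 387 CPM. In the Sult1e1-led pair Sfrp4 was lower in TripleTg, on 57 and 2 UMIs, and in the Wif1-led pair it had 1 and 0 UMIs. Sfrp1 had log2 ratios of 0.82 (0.67 to 0.97) and 0.03 (-0.35 to 0.40) in these pairs. Of the Wnt list 4 of 10 genes were higher and 3 lower in the Sult1e1-led pair, beside 6.69% and 13.4% over all genes, and 6 of 14 higher and 2 lower in the Wif1-led pair, beside 10.5% and 7.36%.

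Axin2, which β-catenin induces directly, was at 10.6 CPM in DoubleTg and 28.8 CPM in TripleTg collagen-dominant cells, a log2 ratio of 1.44 (0.88 to 2.02). It was the only 1 of 5 Wnt target genes measured to be 2-fold higher, and 0 were lower (median 0.55), beside 8.71% and 5.73% over all genes. In the Sult1e1-led pair 1 of 4 was higher and 2 lower (median -1.08), beside 6.69% and 13.4%. In the Wif1-led pair 2 of 7 were higher and 0 lower (median 0.60), beside 10.5% and 7.36%. Without cells over 5 epithelial UMIs per 10000 the Axin2 ratio over the cells of the rule was -0.54 (-1.94 to 0.63), against 2.91 over all of them. In the epithelial gate it was at 2.48 CPM and 74.5 CPM. By cluster it was at 57.3 CPM in TripleTg cluster 3 and 15.1 CPM in DoubleTg cluster 4, and at 5.83 CPM and 6.42 CPM in the Sult1e1-led clusters. Whether free epithelial RNA took part in the fibroblast value was not tested.

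Few fibroblast transcription factors passed 2-fold. Of 18 measured, 1 was higher and 2 lower in TripleTg, near the 8.71% and 5.73% over all genes. Tcf21, a mesenchymal transcription factor, was at 426 CPM in DoubleTg and 92.3 CPM in TripleTg collagen-dominant cells, a log2 ratio of -2.21 (-2.42 to -2.003). It was lower within both matched states, at 355 CPM and 145 CPM in the Sult1e1-led clusters and 425 CPM and 136 CPM in the Wif1-led clusters. Foxf1, a mesenchymal factor that answers hedgehog signals, was at 135 CPM and 51.9 CPM, a log2 ratio of -1.38 (-1.68 to -1.10). Ebf1 was at 62.8 CPM and 136 CPM, a log2 ratio of 1.11 (0.87 to 1.35). In contractile collagen-positive cells Tcf21 was at 275 CPM and 82.9 CPM.

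Growth factors, their binding proteins and the receptors Esr1 and Pgr also differed. Igf1, insulin-like growth factor 1, was at 241 CPM in DoubleTg and 450.3 CPM in TripleTg collagen-dominant cells, a log2 ratio of 0.90 (0.77 to 1.02). Its binding proteins parted, with Igfbp4 at 544 CPM and 1979 CPM and Igfbp2 at 168 CPM and 22.8 CPM. Igfbp4 had log2 ratios of 0.89 (0.66 to 1.12) in the Sult1e1-led pair and -0.23 (-0.37 to -0.08) in the Wif1-led pair, and Igf1 had -0.08 (-0.35 to 0.17) and 1.47 (1.17 to 1.78). Gas6, a ligand of the AXL receptor, was at 342 CPM and 715 CPM. Of 17 growth factors that can act on epithelium, 7 were at least 2-fold higher and 0 lower, beside 8.71% and 5.73% over all genes. Over all cells of the rule 8 of 16 were higher and 3 lower, beside 9.90% and 8.07%. In the Sult1e1-led pair 2 of 16 were higher and 3 lower (median -0.12), beside 6.69% and 13.4%, and in the Wif1-led pair 5 of 16 were higher and 2 lower (median 0.20), beside 10.5% and 7.36%. Esr1, the oestrogen receptor, was at 11.8 CPM and 36.1 CPM, and Pgr, the progesterone receptor, at 6.11 CPM and 21.0 CPM. In the Wif1-led pair Esr1 had 26 and 50 UMIs and Pgr 26 and 47. In the Sult1e1-led pair Esr1 had 5 and 6 UMIs and Pgr 0 in both. Of 12 androgen receptor and steroid response genes measured, these 2 were higher and 1 was lower (median 0.12), beside 8.71% and 5.73% over all genes. Sult1e1 was lower, with a log2 ratio of -1.63 (-1.81 to -1.45).

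The human HGF transgene was found in a larger share of DoubleTg than of TripleTg collagen-dominant cells. hHGFtg was at 1783 CPM (1743 to 1823) in DoubleTg and 495 CPM (467 to 525) in TripleTg collagen-dominant cells, a log2 ratio of -1.85 (-1.94 to -1.76). It had a UMI in 288 of 495 DoubleTg cells (58.2%) and 130 of 326 TripleTg cells (39.9%). With each cell thinned to 2000 UMIs the shares were 46.5% and 30.6%. In the immune gate the thinned shares were 2.11% and 4.07%, at median depths of 9032 and 14286 UMIs, and in the endothelial gate 3.13% and 2.90%. Over all cells of the rule hHGFtg was in 53.6% (466 of 869) and 37.0% (153 of 413) of cells, at 1228 CPM and 375 CPM.

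Other cells had less hHGFtg per UMI. Contractile collagen-positive cells had 696 CPM of hHGFtg in DoubleTg and 128 CPM in TripleTg, the epithelial gate 349 CPM and 81.6 CPM, the endothelial gate 20.5 CPM and 5.72 CPM, and the immune gate 9.24 CPM and 51.4 CPM. Collagen-dominant cells stood above contractile cells by 1.36 (1.28 to 1.43) on the log2 scale in DoubleTg and 1.96 (1.73 to 2.19) in TripleTg. The lower TripleTg level was found in the fibroblasts, the contractile cells and the epithelial gate, and the immune gate went the other way on 38 and 96 UMIs.

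Within the fibroblasts, a few cells held most hHGFtg UMIs. The 50 highest of 495 DoubleTg collagen-dominant cells held 67.6% of its UMIs, and the 33 highest of 326 TripleTg cells held 78.2%. DoubleTg cluster 4 had hHGFtg at 2885 CPM and in 77.7% of cells, cluster 1 at 2102 CPM and in 62.0%, and cluster 2 at 884 CPM and in 49.0%. In TripleTg, cluster 3 had 1445 CPM of hHGFtg, in 64.0% of cells. DoubleTg cluster 4 and TripleTg cluster 3 are the Wif1-led clusters, whose log2 ratio was -0.997 (-1.10 to -0.89). In the Sult1e1-led clusters hHGFtg was at 884 CPM and 263 CPM, a log2 ratio of -1.75 (-2.02 to -1.48). TripleTg cluster 1 had 114 CPM of hHGFtg.

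Mouse Hgf was highest in the same clusters as the transgene, and its difference between the libraries varied by state. Hgf was at 278 CPM in DoubleTg and 192 CPM in TripleTg collagen-dominant cells, and at 436 CPM in DoubleTg cluster 4 and 536 CPM in TripleTg cluster 3, a log2 ratio of 0.30 (0.10 to 0.50) where that of hHGFtg was -0.997. In the Sult1e1-led pair Hgf was at 141 CPM and 55.6 CPM (266 and 26 UMIs), a log2 ratio of -1.34 (-1.98 to -0.76), where that of hHGFtg was -1.75 (-2.02 to -1.48). Of DoubleTg collagen-dominant cells with a Hgf UMI 87.1% had a hHGFtg UMI, against 36.8% of those without, and in TripleTg the shares were 67.5% and 23.8%, none of them matched for depth. The count of hHGFtg UMIs divided by that of Hgf UMIs, not corrected for length, lay between 6.05 and 8.30 in the 6 DoubleTg clusters and was 7.11 in the epithelial gate. In TripleTg clusters 0 to 4 it lay between 1.71 and 4.73. The sequences of the transcripts are alike, and whether reads of one were counted as the other was not tested.

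**Figure D5:**
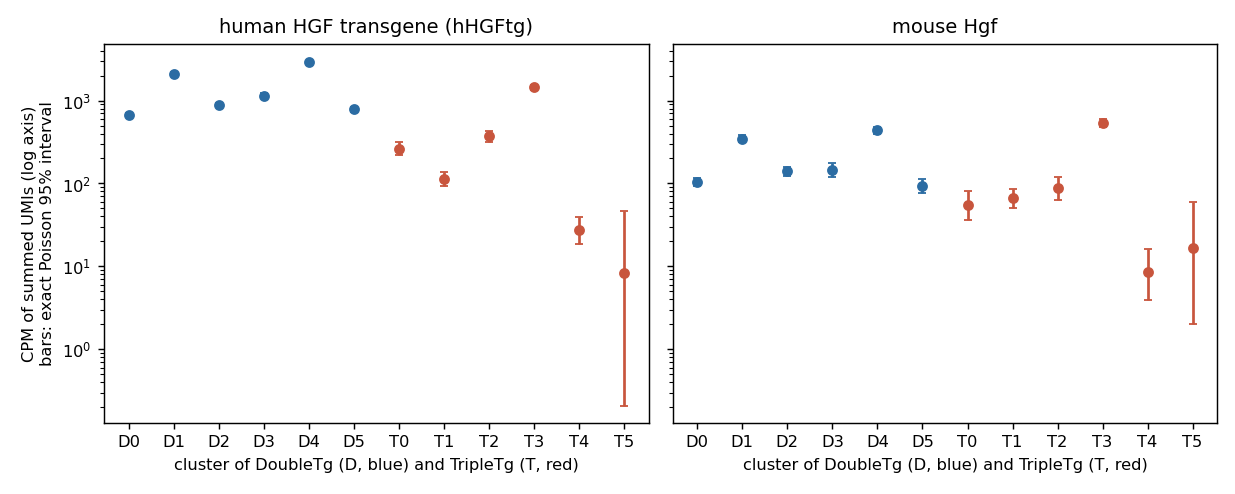
Level of the hHGFtg transgene (left) and mouse Hgf (right) in CPM on a log axis for each DoubleTg (D) and TripleTg (T) cluster, with exact Poisson 95% intervals. D4 and T3, the Wif1-led clusters, are highest for hHGFtg at 2885 CPM and 1445 CPM and for Hgf at 436 CPM and 536 CPM.

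The receptors were under 40 CPM over the collagen-dominant cells. Met, which encodes the mouse HGF receptor, was at 9.87 CPM and 17.6 CPM in collagen-dominant cells, and under 20 CPM in both libraries. hMETtg, at 19.98 CPM and 31.3 CPM, was in 8.69% of DoubleTg and 8.28% of TripleTg collagen-dominant cells, against 10.7% and 4.07% of the immune gate. After thinning to 2000 UMIs the hMETtg shares were 2.24% and 4.23% in collagen-dominant cells and 2.11% and 0.813% in the immune gate. By cluster hMETtg was at 89.8 CPM (58 UMIs) in TripleTg cluster 3 and 18.5 CPM (22 UMIs) in DoubleTg cluster 4, a log2 ratio of 2.28 (1.55 to 3.06), and at most 10.1 CPM in the other fibroblast-like clusters. The epithelial gate had hMETtg at 435 CPM and 39.6 CPM, and the part of its RNA in the cluster values was not tested.

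Several of the largest differences involved transcripts of other cells. The 5 erythroid genes summed to 4.70 CPM in DoubleTg and 9415 CPM in TripleTg collagen-dominant cells, with Hbb-bt and Alas2 at 0 in DoubleTg and all 5 present in TripleTg. The erythroid sum reached 2.42% of UMIs in TripleTg cluster 0 and 1.32% in cluster 3. The 14 prostate and seminal vesicle secretory genes summed to 4502 CPM in DoubleTg and 16032 CPM in TripleTg collagen-dominant cells, with Apoc4 at 0 in DoubleTg and Msmb and Sbp at 0 in TripleTg, and to 115093 CPM and 61480 CPM in the epithelial gate. Svs4, a seminal vesicle protein, was at 7.05 CPM and 6472 CPM. Epithelial markers summed to 1233 CPM and 2220 CPM in these cells, with all 14 present in both. The part of these transcripts in the fibroblast differences was not tested.

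The lowest ratios of TripleTg over DoubleTg included a neuropeptide and stress genes. Erdr1 had 1128 UMIs in DoubleTg and 2 in TripleTg collagen-dominant cells, and it was also near 0 in the TripleTg epithelial gate, at 0.107 CPM against 64.7 CPM. Gal, galanin, was at 89.6 CPM and 2.15 CPM. The heat shock gene Hspa1b was at 281 CPM and 39.9 CPM, a log2 ratio of -2.82 (-3.14 to -2.51), and Hspa1a at 320.4 CPM and 104 CPM. Of 22 immediate early and heat shock genes, which dissociation can induce, 3 were at least 2-fold lower (Hspa1b, Hspa1a and Fosl1) and 0 higher, beside 5.73% lower and 8.71% higher over all genes. Fos was at 876 CPM and 1563 CPM, a log2 ratio of 0.84, under 2-fold.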

How the data were processed

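Raw UMI counts per gene and cell were deposited as matrices, 1 per library. The authors made these counts with Cell Ranger (6.0.2 in the submitters' processing notes, 6.1.1 in the matrix headers) on mm10 with both human transgenes added. Cells with more than 200 and fewer than 7000 genes and under 15% mitochondrial UMIs were taken, as in the study's methods, and at least 1000 UMIs were required in addition. DoubleTg held 12072 barcodes, of which 10598 passed the study's limits and 9854 were kept, and TripleTg held 9492, 9492 and 9262. The limits thus removed no TripleTg barcode, so that matrix was deposited with only cells that meet them and the DoubleTg matrix was not. The study's methods give another DoubleTg number after these limits, smaller than the 10598 found here, and other numbers of barcodes before them.

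Cells were chosen by the rule given at the opening. Counts were summed over the chosen cells of a library and given as CPM. Ratios were TripleTg over DoubleTg, with sums under 3 UMIs set to 3. A gene was measured at 20 CPM or more in either library and counted as higher or lower from 2-fold. Chosen cells were clustered within each library with scanpy 1.11.5 and the Leiden method of igraph 0.11.9 (1500 variable genes, 15 principal components, 15 neighbours, resolution 0.5). Doublets were called with Scrublet but not removed. TMM factors came from edgeR 4.0.16 in R 4.3.3, which was used for scaling alone.

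Named genes were those of the gene lists, the transgenes, the 15 highest and 15 lowest ratios between the genotypes and the 15 highest over the other kept cells, from 50 CPM and 2 times the other kept cells. Members and gene lists were chosen with earlier results of these data known. The cells compared with them had a collagen sum under 20 per 10000 and, for the immune and endothelial gates, a Ptprc or a Pecam1 UMI with under 5 epithelial UMIs per 10000, and for the epithelial gate neither UMI and at least 5 epithelial UMIs per 10000. Alternatives changed the thresholds of the rule, the scaling, the weight and depth of cells and the CPM minimum.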

Additional observations from a re-analysis of the deposited data

How the results depend on the processing

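Counts and shares moved with the thresholds of the rule. With a collagen sum of at least 10 per 10000, 1535 DoubleTg and 676 TripleTg cells were chosen, and the hHGFtg log2 ratio was -1.85. With at least 40 there were 477 DoubleTg cells, and the log2 values were -2.04 for hHGFtg, 1.40 for the median collagen, 1.02 for matrix-remodelling, -0.89 for interferon-stimulated and -1.09 for antigen-presenting genes. Without cells over 5 epithelial UMIs per 10000 there were 363 DoubleTg and 94 TripleTg cells, hHGFtg was in 61.7% of DoubleTg cells with a log2 ratio of -2.39, and the medians were 1.36 for collagens, -1.60 for interferon-stimulated and -1.08 for antigen-presenting genes. In that setting Wif1 turned to -0.82 and Axin2 to -0.54. In collagen-dominant cells, chosen after seeing the data, there were 495 DoubleTg cells with hHGFtg in 58.2% and a log2 ratio of -1.85, medians of 1.33, 0.93, -1.39 and -1.14 in the same order of lists, and Wif1 at -0.043. Without the Rgs5-led cluster as well, with the DoubleTg cells the same 495 and 58.2%, the medians were 0.89, 0.70, -1.35 and -1.12. The hHGFtg ratio was -1.52 with Acta2 plus Tagln under 2 per 10000, -1.82 with TMM factors, -1.41 with each cell weighted equally and -1.42 with each cell thinned to 1000 UMIs. Thinning also gave medians of 1.20 for matrix-remodelling and -0.19 for interferon-stimulated genes, and equal weights gave 1.21 for matrix-remodelling genes. With each cell thinned to 2000 UMIs hHGFtg was in 39.2% of DoubleTg and 26.1% of TripleTg cells. At least 10 CPM gave 898 genes higher in TripleTg, and no CPM minimum gave 2973 higher, 1081 lower and a matrix-remodelling median of 1.17. The causes of these shifts were not tested. The gene ratios were followed for 73 genes picked for the text, not for all named or listed genes. Of these, 45 were past 2-fold over all cells of the rule, and 38 to 44 of the 45 were also past it in each setting. Scrublet called 290 of 9854 DoubleTg cells doublets and none in TripleTg, so the TripleTg calls were not relied on and the comparison without doublets was left out. Whether the caller failed there or the gene limits, applied before deposit, had removed doublets was not tested. It called 22 of the 869 chosen DoubleTg cells. No paired analysis was possible because each genotype has 1 library. TripleTg collagen-dominant cells were the shallower, which limits genes near 20 CPM most.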
